A study of Mus musculus with 18 samples.

Results

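The genes described here encode enzymes of the NRF2 and antioxidant defence of the cell, namely Nqo1, Gclm, Gclc, Srxn1, Txnrd1, Gsr, Prdx1, Sod2, Cat and Gpx1. They were found by gene symbol in the spleen expression table, which lists 19320 genes after repeated names were left out, and all 10 were present. All 10 also belonged to the 12905 genes tested, which are those with an RPKM (a read count divided by gene length and by sequencing depth) of 1 or more in at least 3 of the 18 libraries. Every library came from the spleen of an ICR mouse, an outbred stock, aged 10 weeks, and there were 3 libraries in each of 6 groups. Con mice were the controls. A10 mice were given alginate oligosaccharide (AOS), a chain of a few sugars cut from the alginate of seaweed, at 10 mg per kg. STZ mice were given streptozotocin, a toxin taken up by the insulin-producing beta cells, and served as the model of type 1 diabetes. STZ-A10 mice were given both agents. A10-FMT mice were given STZ and a microbiota transplant from donors that had received AOS at 10 mg per kg, and Con-FMT mice were given STZ and a transplant from control donors. Thus 4 of the 6 groups carried STZ, and no transplant was given without it. Per the study's methods the mice were male, STZ was injected once, and the transplant was small-intestinal content pooled over donors and given by mouth, while the route of AOS in the A10 and STZ-A10 spleen groups is not described. The study measured antioxidants in the blood of transplanted mice, and the comparisons below ask whether transcripts of the antioxidant enzymes differed in the spleen.

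NRF2, the product of Nfe2l2, is a transcription factor that KEAP1 holds in the cytoplasm and marks for degradation until oxidants or electrophiles modify KEAP1. Freed NRF2 enters the nucleus, pairs with a small MAF protein and binds antioxidant response elements near genes for glutathione synthesis, the thioredoxin system and quinone detoxification. Superoxide dismutase, catalase, glutathione peroxidase and the peroxiredoxins remove superoxide and peroxides directly, in part under other factors. The spleen filters aged red cells and recovers their iron, in mice it also makes red cells, and developing red cells are known to hold much peroxidase, catalase and glutathione.

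The libraries differed in their makeup. All 9 B cell markers and all 12 erythroid markers reached an RPKM of 1 in every library. A10-FMT replicate 3 had the most erythroid signal, with a summed RPKM of 5535 over the 12 markers, and STZ-A10 replicate 1 the least, with 977. The 6 globin genes took between 10.4% (STZ replicate 1) and 42.7% (A10-FMT replicate 3) of the summed RPKM. The 13 neutrophil markers reached 16060 in Con replicate 1, against 427 in STZ replicate 2. Of genes made by other organs, 14 exocrine pancreas markers summed to 26480 in A10-FMT replicate 2 and to as little as 25.8 elsewhere (Con replicate 3). The 14 hepatocyte markers summed to between 56.8 (STZ replicate 3) and 461 (A10-FMT replicate 3). The low end was mostly Trf, with a mean of 55.9 RPKM in STZ, where Alb had a mean of 0.907. Con and STZ also stood apart from the other 4 groups. The 6 kidney tubule markers summed to between 14.0 and 27.1 in the Con and STZ libraries and to at most 0.75 in the other 12, mostly through Kap, an androgen-regulated kidney gene, with a mean of 18.1 RPKM in Con and 23.5 in STZ, and the 8 testis germ cell markers reached 280 in Con replicate 2. A10 against Con, and STZ-A10, A10-FMT and Con-FMT against STZ, each set a group with this signal against one without it, and its part in their values was not tested. In whole tissue, fewer cells of a type cannot be told apart from less RNA per cell.

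Per length of gene, Gpx1 was the most abundant of the 10 and Srxn1 the least. The median RPKM over the 18 libraries was 1484 for Gpx1, which lies above 99.5% of the genes tested, and 216 for Prdx1. It was 74.5 for Gclm, 64.0 for Cat, 29.5 for Gclc and 23.4 for Txnrd1. The lowest levels were 17.9 for Sod2, 13.7 for Gsr, 8.38 for Nqo1 and 6.24 for Srxn1. The genes also differed in how far they ranged between libraries. Nqo1, Gsr and Gclm spanned 3.81-fold, 3.79-fold and 3.74-fold from the lowest to the highest library, Srxn1 3.28-fold, Gclc 2.88-fold and Gpx1 2.61-fold. Cat spanned 1.98-fold, Txnrd1 1.68-fold, Prdx1 1.51-fold and Sod2 1.49-fold, where the median over all genes tested was 2.18-fold. A single library, A10-FMT replicate 3, held the highest value of 8 of the 10 genes, all but Gsr and Prdx1. That library stood apart in other ways too, with the lowest summed RPKM of the B cell markers (603, against 1477 or more elsewhere) and of the T cell markers (77.5), the highest of the hepatocyte markers (461) and the fewest genes at an RPKM of 1 (11532), and their part in these values was not tested.

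**Figure D1:**
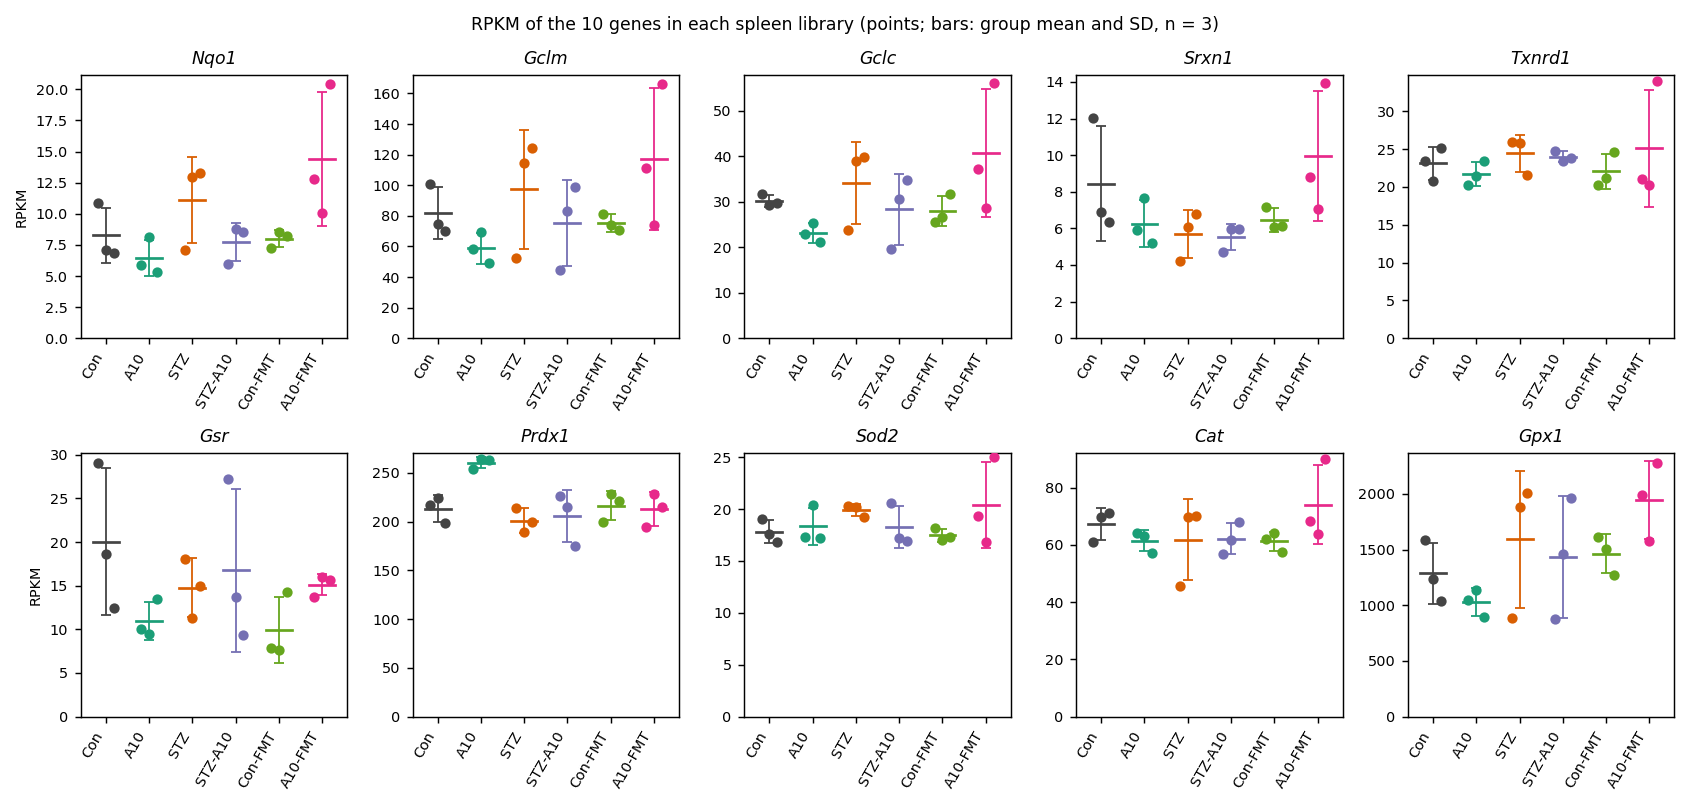
RPKM of each of the 10 genes (vertical axis, from 0) in the 18 spleen libraries, 3 per group (horizontal axis, points in order of replicate number), with the group mean as a line and the SD as an error bar. A10-FMT replicate 3 stands highest for 8 genes, the 3 A10 libraries of Prdx1 lie above all others, and the STZ and STZ-A10 libraries of Gclm and Gpx1 spread widely.

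Antioxidant response elements were looked for in the promoters, because NRF2 acts through them and several of the genes went together over the libraries. RefSeq windows (GRCm38.p6) from 250 bases before to 50 bases after a start were at hand for 8 of the 10 genes (not Gclc and Gsr), 10 windows in all with 3 for Txnrd1. The motifs TGACNNNGC and TGAGNNNGC were searched on both strands, and 27.8% of the 32851 windows of all genes hold at least 1 match. Among the 10 windows 4 hold a match, those of Gclm, Srxn1, Prdx1 and 1 of Txnrd1, and none was found in the windows of Nqo1, Cat, Gpx1 and Sod2. Bases farther than 250 before a start were not searched, so an element there could not have been found. The matches upstream of the start are printed 5′ to 3′ on the strand of the gene with the motif in capitals, 10 bases on each side, to show which letters of the element each gene carries.
Gclm, chr3:122245413-122245441, match on the other strand: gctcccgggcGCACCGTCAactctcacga
Srxn1, chr2:152105469-152105497, match on the strand of the gene: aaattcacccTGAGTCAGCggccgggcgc
Srxn1, chr2:152105356-152105384, match on the other strand: tctactgagaGCCGACTCAtcctctctgg
Prdx1, chr4:116685456-116685484, match on the other strand: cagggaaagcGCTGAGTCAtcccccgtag
Txnrd1, chr10:82859104-82859132, match on the other strand: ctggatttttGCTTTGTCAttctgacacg
Srxn1 thus holds 2 matches upstream, of which TGAGTCAGC lies nearest its start, and Prdx1 holds TGACTCAGC on the other strand. The letters read by erythroid GATA factors were searched on both strands as AGATAA or AGATAG and also as TGATAA or TGATAG, and they occur in 29.8% of all windows and in 0 of the 10. A match is a description of letters and not of binding.

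Gclm and Gclc encode the modifier and the catalytic subunit of glutamate-cysteine ligase, which makes the first and limiting step of glutathione synthesis. Gclm (chr3:122245557-122270732, plus strand, GRCm38) stood at 101, 74.9 and 69.8 RPKM in Con, 58.1, 69.5 and 49.2 in A10, 52.6, 115 and 124 in STZ, 44.4, 83.4 and 98.9 in STZ-A10, 81.5, 74.1 and 70.4 in Con-FMT, and 111, 74.1 and 166 in A10-FMT. The first STZ and the first STZ-A10 libraries were far below the others of their groups, and A10-FMT replicate 3 was the highest of all 18. The 3 A10 libraries lay below the 3 Con libraries, by a margin as narrow as 69.5 to 69.8. Gclc (chr9:77754535-77794485, plus strand) stood at 31.8, 29.4 and 29.6 RPKM in Con, 22.8, 25.4 and 21.2 in A10, 23.8, 38.9 and 39.9 in STZ, 19.5, 30.5 and 34.9 in STZ-A10, 25.6, 26.6 and 31.7 in Con-FMT, and 37.1, 28.7 and 56.1 in A10-FMT. A10 again lay below Con without overlap, and the first STZ and STZ-A10 libraries were again low, while in Con-FMT the highest library of Gclm was the lowest of Gclc. Neither difference passed the test, with log2 fold changes of -0.46 (SE 0.342, limma adjusted p = 0.989) for Gclm and -0.38 (SE 0.240, limma adjusted p = 0.989) for Gclc.

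Nqo1 (chr8:107388225-107403206, minus strand) encodes the quinone reductase that is often used as the readout of NRF2. It stood at 10.8, 7.08 and 6.86 RPKM in Con, 5.88, 8.12 and 5.36 in A10, 7.11, 12.9 and 13.3 in STZ, 5.95, 8.76 and 8.51 in STZ-A10, 7.23, 8.54 and 8.24 in Con-FMT, and 12.8, 10.0 and 20.4 in A10-FMT. Every A10-FMT library was above every Con-FMT library, and 2 of the 3 STZ libraries were above all of Con and STZ-A10. The group means were 14.4 ± 5.38 (SD, n = 3) in A10-FMT and 8.003 ± 0.686 in Con-FMT. The log2 fold change was 0.72 (SE 0.260, 95% interval 0.17 to 1.28) and did not pass the threshold (limma adjusted p = 0.204). Without A10-FMT replicate 2, the lowest of its group, the log2 fold change was 0.94 and the limma adjusted p was 0.0362, in a fit that called 2625 genes in place of 0. The order of the group means was A10, STZ-A10, Con-FMT, Con, STZ and A10-FMT, and each overlapped its neighbour in that order.

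Srxn1, Prdx1 and Txnrd1 belong to the thioredoxin branch. Peroxiredoxin 1, the product of Prdx1, reduces hydrogen peroxide, sulfiredoxin, the product of Srxn1, repairs overoxidized peroxiredoxins, and thioredoxin reductase 1, the product of Txnrd1, recharges thioredoxin with NADPH. Srxn1 (chr2:152105516-152111376, plus strand) stood at 12.1, 6.92 and 6.37 RPKM in Con, 5.89, 7.67 and 5.21 in A10, 4.24, 6.09 and 6.79 in STZ, 4.71, 5.94 and 5.95 in STZ-A10, 7.19, 6.07 and 6.11 in Con-FMT, and 8.82, 7.07 and 13.9 in A10-FMT. The A10-FMT libraries lay above all 3 STZ libraries, and Con replicate 1 and A10-FMT replicate 3 stood apart from the rest. The log2 fold change of A10-FMT against STZ was 0.68 (SE 0.239, 95% interval 0.17 to 1.19) with a limma adjusted p of 0.244, and 0.87 with a limma adjusted p of 0.0798 without A10-FMT replicate 2.

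Prdx1 (chr4:116685544-116700822, plus strand) had the smallest scatter within groups of the 10 (pooled SD 0.114 on the log2 scale), and its highest libraries were those of A10. It stood at 217, 224 and 198 RPKM in Con, 254, 264 and 263 in A10, 214, 190 and 199 in STZ, 227, 215 and 175 in STZ-A10, 200, 228 and 221 in Con-FMT, and 195, 229 and 215 in A10-FMT. The A10 libraries lay above all 15 other libraries. The group means were 261 ± 5.48 (SD, n = 3) in A10 and 213 ± 13.6 in Con. The difference of 0.29 on the log2 scale (SE 0.106, 95% interval 0.06 to 0.51) was past an unadjusted p of 0.05 (0.0149) and not past the adjusted threshold (limma adjusted p = 0.729). Txnrd1 (chr10:82833951-82897712, plus strand) ranged from 20.3 RPKM in A10-FMT replicate 2 to 34.0 in A10-FMT replicate 3, with all other libraries at 26.0 or below, and its group means differed by at most 1.16-fold.

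Gsr (chr8:33652523-33698163, plus strand) encodes glutathione reductase, which returns oxidized glutathione to its reduced form. It stood at 29.1, 18.6 and 12.4 RPKM in Con, 10.0, 9.44 and 13.5 in A10, 18, 11.3 and 15.0 in STZ, 27.3, 13.7 and 9.36 in STZ-A10, 7.80, 7.68 and 14.3 in Con-FMT, and 13.7, 16.0 and 15.6 in A10-FMT. Con replicate 1 and STZ-A10 replicate 1 held the highest values, and A10-FMT had the narrowest range. The group means differed by 2.02-fold between Con and Con-FMT, and every pair of neighbours in the order of means overlapped. Against Con, A10 was lower by 0.75 on the log2 scale (log2 fold change -0.75, SE 0.339), with overlap and a limma adjusted p of 0.938.

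Gpx1, Cat and Sod2 encode the enzymes that act on peroxides and superoxide. Glutathione peroxidase 1, a selenoprotein encoded by Gpx1 (chr9:108338903-108340343, plus strand), uses glutathione to reduce peroxides. It stood at 1584, 1236 and 1041 RPKM in Con, 1045, 1140 and 891 in A10, 884, 1879 and 2008 in STZ, 872, 1464 and 1961 in STZ-A10, 1613, 1504 and 1268 in Con-FMT, and 1990, 1574 and 2273 in A10-FMT. The first libraries of STZ and STZ-A10 were the lowest of all 18, and the groups overlapped in all 6 comparisons. Catalase, the product of Cat (chr2:103453849-103485160, minus strand), breaks hydrogen peroxide down in peroxisomes. It ranged from 45.5 RPKM in STZ replicate 1 to 89.9 in A10-FMT replicate 3, with the other 16 libraries between 56.9 and 71.3.

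Sod2 (chr17:13006846-13040063, plus strand) encodes the manganese superoxide dismutase of mitochondria. It stood at 19.0, 17.6 and 16.8 RPKM in Con, 20.3, 20.2 and 19.2 in STZ and 18.2, 17 and 17.3 in Con-FMT, so that all STZ libraries were above all Con and all Con-FMT libraries, by a small margin. The log2 fold changes were 0.15 (SE 0.124, limma adjusted p = 0.743) for STZ against Con and -0.18 (SE 0.124, limma adjusted p = 0.964) for Con-FMT against STZ, and these comparisons share the STZ libraries. In A10-FMT the values were 19.4, 16.8 and 25.0, and in A10 and STZ-A10 they ran from 16.9 to 20.6.

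No gene of the 10 passed the adjusted threshold of 0.05 in any of the 8 tests, which were 6 comparisons of 2 groups, the interaction of STZ and AOS, and the test of any difference among the 6 groups. For STZ against Con, limma called 0 of 10 and 0.163% of all genes tested, and at an unadjusted p under 0.05 it counted 0 of 10 where 11.1% of all genes passed. Sod2 was the 1 gene of 10 whose groups did not overlap, against 12.8% of all genes. For A10 against Con it called 0 of 10, where 0.00775% of all genes were called. At an unadjusted p under 0.05 there were 2 of 10, Prdx1 higher and Gsr lower, against 5.25% of all genes, and 3 of 10 did not overlap between the groups, against 16.5% of all genes. For STZ-A10 against STZ, limma called 0 of 10 (0.00775% of all genes), with 0 of 10 at an unadjusted p under 0.05 (2.93% of all genes) and 0 of 10 without overlap (8% of all genes).

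For A10-FMT against STZ, limma called 0 of 10 (0.00775% of all genes), and Srxn1 was the 1 gene of 10 at an unadjusted p under 0.05, where 17.2% of all genes passed, and the 1 gene without overlap, against 14.4% of all genes. For Con-FMT against STZ it called 0 of 10 (0.00775% of all genes), with 0 of 10 at an unadjusted p under 0.05 (5.24% of all genes) and Sod2 alone without overlap (13.2% of all genes). For A10-FMT against Con-FMT it called 0 of 10 (0% of all genes), and Nqo1 was the 1 gene at an unadjusted p under 0.05 and the 1 gene without overlap, against 23.6% and 29.3% of all genes. For the interaction of STZ and AOS, limma called 0 of 10 (0% of all genes) and 0 of 10 at an unadjusted p under 0.05 (2.86% of all genes). For any difference among the groups it called 0 of 10 (0.449% of all genes), with 2 of 10 at an unadjusted p under 0.05 (22.6% of all genes), Nqo1 with F = 3.88 (limma adjusted p = 0.168) and Prdx1 with F = 3.24 (limma adjusted p = 0.198). With libraries weighted by their scatter 0 to 8 of the 10 genes passed, as did up to 77.3% of all genes, and those counts are given in the closing section.

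**Figure D2:**
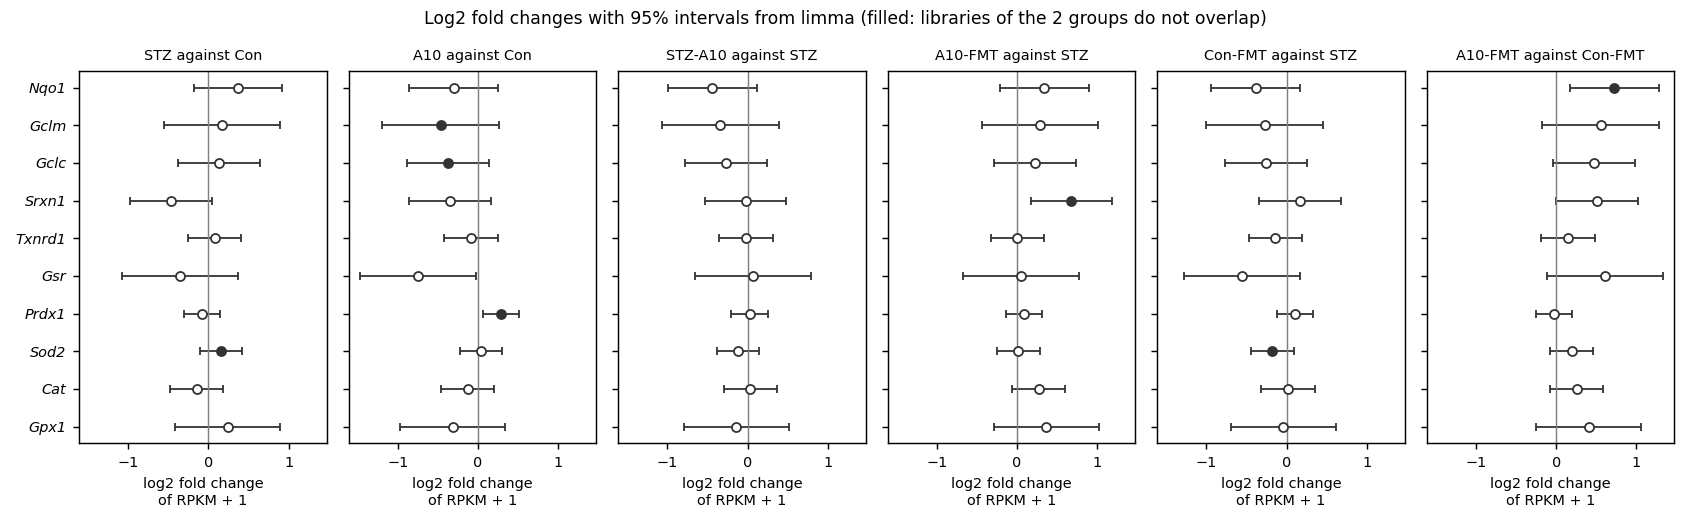
Log2 fold change of RPKM + 1 (horizontal axis) of the 10 genes (vertical axis) in the 6 comparisons of 2 groups, with the 95% interval from limma as a bar. Filled points mark genes whose 3 and 3 libraries do not overlap. Only Prdx1 and Gsr (A10 against Con), Srxn1 (A10-FMT against STZ) and Nqo1 (A10-FMT against Con-FMT) have intervals that leave out 0, and none of these passed the adjusted threshold.

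The intervals show which differences the values allow, with the spread estimated over all 6 groups. For Gclm the 95% interval of STZ against Con ran from -0.56 to 0.90 on the log2 scale, for Gpx1 from -0.42 to 0.89 and for Gsr from -1.08 to 0.36. Differences within these bounds were thus not excluded. For Prdx1 the interval ran from -0.31 to 0.14, for Sod2 from -0.11 to 0.42 and for Txnrd1 from -0.26 to 0.41. In A10-FMT against STZ the log2 fold change was above 0 for 10 of 10 genes, from 0.0041 (Txnrd1) to 0.68 (Srxn1), with a median of 0.25 where the median of all genes was -0.15 and 27.7% of them were above 0, but the 10 of 10 depended on the processing and on single libraries. Prdx1 stood at -0.0015 under quantile normalization, 6 of 10 genes were above 0 with array weights and 5 with the mean of the erythroid markers as a covariate, and 6 of 10 were above 0 without A10-FMT replicate 3. Against Con-FMT, A10-FMT was above 0 for 9 of 10 genes, all but Prdx1, which turned to 0.15 with each library centred on its median and to 0.019 without the globin genes, and the median was 0.44 where that of all genes was -0.17. Without A10-FMT replicate 3, and with array weights, 8 of 10 were above 0. With each library centred on its median these medians were 0.42 and 0.61. Both comparisons share the A10-FMT libraries.

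Over single libraries, 6 of the 10 genes followed the erythroid markers and 4 did not. The mean log2(RPKM + 1) of the 12 erythroid markers, among them Klf1 and Alas2, ran from 5.86 to 8.35, and the 6 were Gclm, Gclc, Gpx1, Nqo1, Cat and Srxn1. Pearson's r over the 18 libraries was 0.983 for Gclm, 0.945 for Gclc, 0.943 for Gpx1 and 0.900 for Nqo1, each with a permutation p of 1e-05, the lowest value open to 100000 permutations, and an adjusted p of 7.5e-05 in the family of 60 relations between the 10 genes and 6 marker lists. It was 0.802 for Cat (permutation p = 0.00012, adjusted 0.00072) and 0.775 for Srxn1 (permutation p = 9e-05, adjusted 0.0006). Spearman's rho was 0.973 for Gclm, 0.936 for Gpx1, 0.924 for Gclc and 0.903 for Nqo1 (adjusted permutation p = 8.57e-05 for each), 0.633 for Cat (adjusted permutation p = 0.0283) and 0.637 for Srxn1 (adjusted permutation p = 0.0282). The median r of all other genes tested was -0.52, and 0.178% of them had an r as high as that of Gclm, 1.15% as high as Gclc, 1.20% as high as Gpx1 and 2.60% as high as Nqo1. For Cat this share was 5.21% and for Srxn1 5.81%. The number of all genes that would pass the threshold with this list was not counted.

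The relation held without the extreme libraries and within groups for most of the 6. Without the 2 libraries farthest from the median of the erythroid mean, r was 0.969 for Gclm, 0.939 for Gpx1, 0.902 for Gclc, 0.852 for Nqo1, 0.703 for Cat and 0.611 for Srxn1. On deviations from the group means, r was 0.989 for Gclm, 0.958 for Gpx1, 0.935 for Gclc, 0.914 for Nqo1 and 0.801 for Srxn1, with exact permutation p adjusted over the 60 relations of 0.00257, 0.00257, 0.00443, 0.00386 and 0.00354. For Cat it was 0.799, and its exact permutation p within groups (0.0177) did not pass after adjustment (0.0884). The other 4 genes did not pass. Their r with the erythroid mean was 0.271 for Txnrd1 (adjusted permutation p = 0.568), 0.308 for Sod2 (adjusted permutation p = 0.478), -0.099 for Gsr (adjusted permutation p = 0.854) and -0.512 for Prdx1 (adjusted permutation p = 0.101), which is close to the median of all genes and was -0.114 without the globin genes. Without A10-FMT replicate 3, as without each other single library, 6 genes passed.

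**Figure D3:**
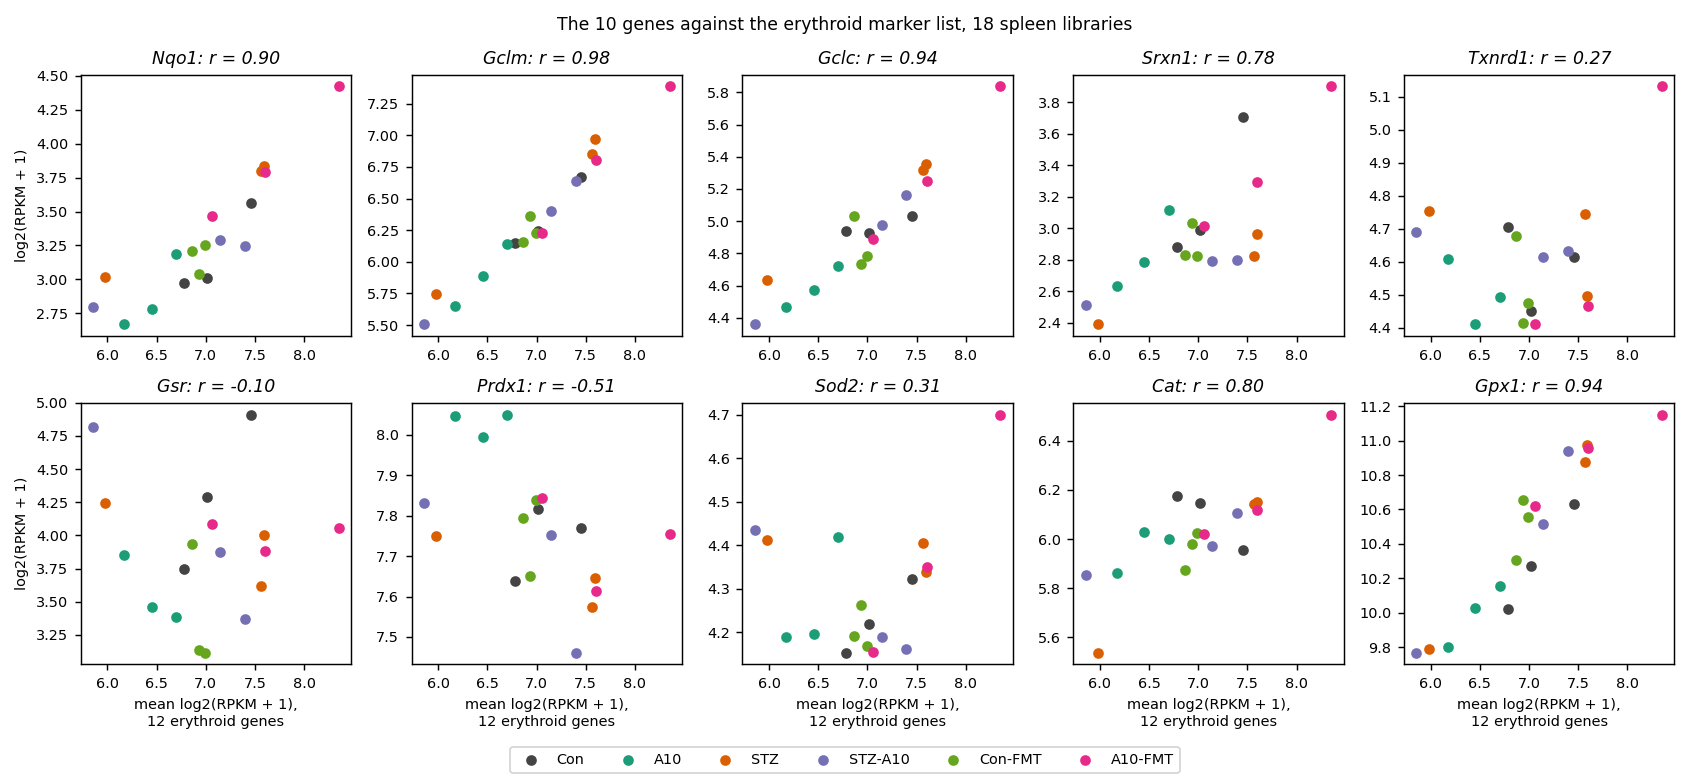
Log2(RPKM + 1) of each of the 10 genes (vertical axis) against the mean log2(RPKM + 1) of the 12 erythroid markers (horizontal axis), 1 point per library, coloured by group. The points of Gclm, Gclc, Gpx1 and Nqo1 lie close to a rising line (r from 0.900 to 0.983) that the libraries of every group share, while Txnrd1, Gsr, Prdx1 and Sod2 show no such line.

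The part of the erythroid markers in the group values was not tested. The markers also varied between the groups in mean level, a difference on which no test was run. Their mean log2 level was 7.67 ± 0.649 (SD, n = 3) in A10-FMT, 7.09 ± 0.341 in Con, 7.05 ± 0.924 in STZ, 6.93 ± 0.064 in Con-FMT, 6.80 ± 0.827 in STZ-A10 and 6.44 ± 0.264 in A10. A10-FMT and A10 hold the highest and the lowest mean here, as they do for Nqo1, Gclm, Gclc and Gpx1. With the erythroid mean as a covariate, an alternative added after seeing the data, the median log2 fold change of the 10 genes was -0.0010 in place of 0.25 for A10-FMT against STZ (5 of 10 above 0), 0.11 in place of 0.44 for A10-FMT against Con-FMT (8 of 10 above 0) and 0.033 in place of -0.31 for A10 against Con (6 of 10 above 0). Prdx1 in A10 against Con stood at 0.23 in place of 0.29, and Srxn1 in A10-FMT against STZ at 0.41 in place of 0.68. With this covariate limma called 0 of the 10 genes in each of the 8 tests. The erythroid mean went with several of the 10 genes and also varied between the groups. This fit therefore cannot separate its part from that of the groups.

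Of the other marker lists, the 9 B cell markers gave 7 relations past the threshold, all negative. How many of all genes would pass was not counted. The median r of all other genes tested was 0.49, and from 0.907% (Nqo1) to 9.13% (Sod2) of them had a lower r than these 7. Pearson's r was -0.889 for Nqo1, -0.863 for Gclc, -0.845 for Gclm, -0.755 for Gpx1, -0.735 for Srxn1, -0.721 for Cat and -0.682 for Sod2 (adjusted permutation p from 7.5e-05 to 0.0407). Spearman's rho for the same genes ran from -0.905 to -0.199, with adjusted permutation p from 8.57e-05 to 0.723, and only Nqo1, Gclc, Gclm and Gpx1 passed on it. For a gene and a list, the 2 farthest libraries are those farthest from the median of the mean of that list. For Sod2, r was -0.062 without the 2 farthest libraries, so that relation rests on those libraries. The B cell and erythroid means were themselves inversely related (r = -0.832, rho = -0.920, permutation p = 1e-05 for each, 0.00015 adjusted over 15 pairs of lists). Without the 2 libraries farthest from the median of the erythroid mean, r between these 2 means was -0.864. Srxn1 fell with the red pulp macrophage markers (r = -0.681, adjusted permutation p = 0.0104, rho = -0.647, adjusted permutation p = 0.0274, r = -0.592 without the 2 farthest libraries), but within groups its r of -0.398 did not pass (adjusted exact permutation p = 0.257). Cat rose with the hepatocyte markers (r = 0.599, adjusted permutation p = 0.0234, rho = 0.507, adjusted permutation p = 0.122), with r = 0.389 without the 2 farthest libraries. The neutrophil and exocrine pancreas lists gave 0 relations past the threshold on r, and on rho 1, that of Srxn1 with the neutrophil markers (rho = 0.649, adjusted permutation p = 0.0274, r = 0.530, adjusted permutation p = 0.101).

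Between the genes themselves, 20 of the 45 pairs passed the threshold, 17 with a positive r. How many pairs of all genes would pass was not counted. For each pair, the 2 farthest libraries are those farthest from the median of 1 gene, the one named earlier in the opening list. Gclm, Gclc, Gpx1 and Nqo1 each also followed the erythroid mean (r from 0.900 to 0.983). Prdx1 had an r of -0.512 with it, and 50.6% of all genes had a lower one. The subunits of glutamate-cysteine ligase went closely together, with r = 0.955 between Gclm and Gclc (rho = 0.922, permutation p = 1e-05, adjusted 7.5e-05 over the 45 pairs, 0.923 without the 2 farthest libraries, 0.931 within groups). Gclm was as close to Gpx1 (r = 0.943, rho = 0.944, 0.934 without the 2 farthest libraries, 0.952 within groups) and close to Nqo1 (r = 0.924, rho = 0.882), each with an adjusted permutation p of 7.5e-05 for r and 0.000112 for rho. Prdx1 was inversely related to 3 of the genes, with r = -0.610 with Gpx1 (adjusted permutation p = 0.0204), -0.570 with Gclm (adjusted permutation p = 0.0327) and -0.565 with Gclc (adjusted permutation p = 0.0328). Spearman's rho was -0.531, -0.612 and -0.664 for these 3 pairs (adjusted permutation p = 0.0723, 0.0318 and 0.0235). Without the 2 farthest libraries r was -0.569, -0.701 and -0.752. With Nqo1 it did not pass (r = -0.431, adjusted permutation p = 0.138, rho = -0.443, adjusted permutation p = 0.168). Sod2 passed with Txnrd1 (r = 0.654, adjusted permutation p = 0.0204, rho = 0.340, adjusted permutation p = 0.329) and with Nqo1 (r = 0.586, adjusted permutation p = 0.03, rho = 0.226, adjusted permutation p = 0.635). Both rest on a few libraries. Without the 2 farthest from the median of Txnrd1, r with Txnrd1 was 0.197. Without the 2 farthest from the median of Nqo1, r with Nqo1 was 0.211. Gsr passed with none of the other 9 genes. The enzymes that act in sequence were not always paired, since r was 0.262 between Srxn1 and Txnrd1, -0.094 between Srxn1 and Prdx1 and -0.199 between Gsr and Gpx1 (adjusted permutation p = 0.38, 0.787 and 0.534).

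**Figure D4:**
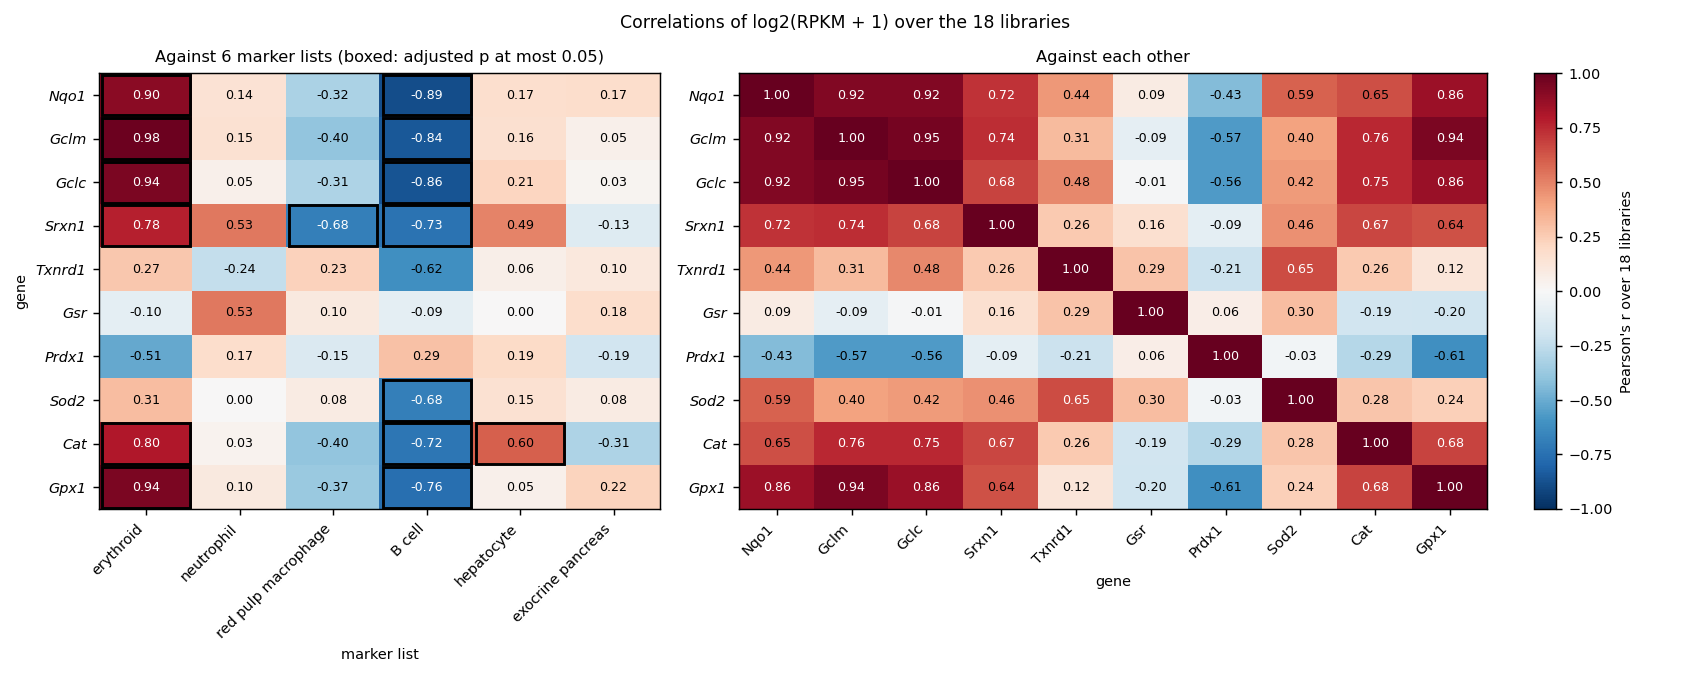
Pearson's r over the 18 libraries of the 10 genes with the mean of 6 marker lists (left, black boxes mark an adjusted permutation p of at most 0.05) and with each other (right), on log2(RPKM + 1). The block of Nqo1, Gclm, Gclc, Srxn1, Cat and Gpx1 is red against the erythroid list and blue against the B cell list, and Gsr stands outside it.

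The 3 genes whose pattern over the 18 libraries was most like each of the 10 were found by Pearson's r on log2(RPKM + 1) among all genes tested. For Gclm these were Klhl12 (r = 0.991), Spire1 (0.987) and Sh3glb1 (0.985). For Gclc they were Xk (0.988), which carries a blood group antigen, Cpox (0.984), an enzyme of heme synthesis, and Cep76 (0.980). For Gpx1 they were Slc25a39 (0.976), which carries glutathione into mitochondria, Samd11 (0.973) and Tspan33 (0.972), and for Nqo1 they were Memo1 (0.972), Nxpe4 (0.963) and Pip5k1b (0.961). Cat was most like Xpo7 (0.898), Itsn1 (0.897) and Slfn14 (0.896), and Srxn1 most like Abhd5 (0.943), Prkar2b (0.907) and Vangl1 (0.903). Outside the erythroid set, Txnrd1 was most like Armcx4 (0.930), Xpo5 (0.902) and Iars (0.889), Prdx1 most like Sar1b (0.877), Dnaaf5 (0.876) and Spcs2 (0.870), Sod2 most like Abcf2 (0.883), Nup133 (0.876) and Smim4 (0.869), and Gsr most like Ppp2cb (0.817), Vcan (0.802) and Chil3 (0.774).

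Of the regulators, Nfe2l2 and Keap1 are given by library. Nfe2l2, which encodes NRF2, stood at 54, 50.03 and 52.4 RPKM in Con, 46.7, 47.5 and 46.98 in A10, 43.9, 44.1 and 53.5 in STZ, 44.8, 50.6 and 45.2 in STZ-A10, 42.9, 49.6 and 49.9 in Con-FMT, and 41.9, 40.1 and 56.3 in A10-FMT. The A10 and the Con-FMT libraries were all below the Con libraries, and the other 3 groups overlapped Con. Keap1, the gene of the protein that restrains NRF2, stood at 17.9, 17.7 and 16.1 RPKM in A10-FMT, below all 3 libraries of Con-FMT (22.3, 21.7 and 20.1) and of STZ (23.0, 20.6 and 18.6). Its log2 fold change was -0.29 against Con-FMT (SE 0.108, limma adjusted p = 0.204) and -0.25 against STZ (SE 0.108, limma adjusted p = 0.272). Between A10-FMT and Con-FMT 29.3% of all genes tested did not overlap, and between A10-FMT and STZ 14.4%. Larger fold changes were seen for 2 other regulators, named after their values were seen, neither past the adjusted threshold. Maff, a small MAF gene, had a mean of 1.44 ± 0.270 RPKM (SD, n = 3) in Con and 2.91 ± 1.03 in STZ, without overlap (log2 fold change 0.65, SE 0.234, limma adjusted p = 0.274). The margin was as narrow as 1.71 to 1.74, at a low level. All A10 libraries of Maff (1.96 to 2.13) also lay above all Con libraries, and those of STZ-A10, Con-FMT and A10-FMT did not all do so. Bach2, a transcriptional repressor of lymphocytes related to BACH1, had 9.67 ± 2.89 in Con and 5.69 ± 1.24 in STZ, also without overlap (log2 fold change -0.65, SE 0.281, limma adjusted p = 0.389). Here the margin was 6.79 to 6.95. Of all genes tested, 12.8% did not overlap between STZ and Con and 16.5% between A10 and Con. The share for Con-FMT against Con was not counted.

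A wider list of 58 other genes of the pathway held regulators, phase 2 and heme enzymes, and genes of glutathione, thioredoxin, peroxide, superoxide and NADPH metabolism. All 58 passed the filter on low values, and limma called 0 of 58 in each of the 8 tests. At an unadjusted p under 0.05 the count for STZ against Con was 12 of 58 (8 higher and 4 lower), or 20.7% where 11.1% of all genes passed. It was 4 for A10 against Con (6.90% against 5.25% of all genes), 2 for STZ-A10 against STZ (3.45% against 2.93%) and 2 for Con-FMT against STZ (3.45% against 5.24%). It was 9 for A10-FMT against STZ (0 higher), 11 for A10-FMT against Con-FMT (2 higher) and 12 for any difference, which are 15.5%, 19% and 20.7% and lie below the shares of all genes (17.2%, 23.6% and 22.6%), and 1 for the interaction (1.72% against 2.86%). The median log2 fold change of the 58 was -0.11 for A10-FMT against STZ and -0.063 for A10-FMT against Con-FMT, where the 10 genes had 0.25 and 0.44 and all genes -0.15 and -0.17.

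The 58 genes were also set against the erythroid markers, in a test added after the data were seen. Pearson's r passed the threshold for 28 of them (adjusted over the 58), positively for 11 and negatively for 17, with a median of -0.27 where that of all genes tested outside the erythroid list was -0.52. How many of all genes would pass was not counted. The weakest negative r to pass was that of Idh2 (-0.548), and 47.5% of all genes had a lower r. The weakest positive one was that of Glrx (0.552), and 10.5% of all genes had an r as high. A negative r was thus the usual case in the table and a high positive r the rare one. The positive ones included Blvrb, a biliverdin and flavin reductase (r = 0.942, rho = 0.917), and Prdx2, the peroxiredoxin abundant in red cells (r = 0.929, rho = 0.928). They also included Txnrd2, the mitochondrial thioredoxin reductase (r = 0.895, rho = 0.905), and Prdx3 (r = 0.851, rho = 0.876). Each of these genes had an adjusted permutation p of 0.000116 for r and for rho. The peroxidases went both ways. Gpx4 also passed positively (r = 0.759, adjusted permutation p = 0.00134), and Gpx7 passed negatively (r = -0.690, adjusted permutation p = 0.00513). Prdx6 (0.419), Prdx4 (-0.096), Prdx5 (-0.479), Gpx3 (-0.042) and Gpx8 (-0.477) did not pass. Txnrd3, another thioredoxin reductase, did not pass either (r = -0.492, adjusted permutation p = 0.0748). Of all genes, 1.23% had an r as high as Blvrb, 1.71% as high as Prdx2, 2.72% as high as Txnrd2 and 4% as high as Prdx3. The small MAF genes Mafk (r = 0.891, rho = 0.847) and Mafg (r = 0.887, rho = 0.880), whose products pair with NRF2, were also positive (adjusted permutation p = 0.000116 and 0.000145 for r, 0.000249 and 0.000193 for rho). Maff, another small MAF gene, did not pass (r = -0.156, adjusted permutation p = 0.589). Among the negative ones were Keap1 (r = -0.819, adjusted permutation p = 0.000369, rho = -0.748, adjusted permutation p = 0.00247), Nfe2l1 (r = -0.795, adjusted permutation p = 0.000822, rho = -0.835, adjusted permutation p = 0.00029), and the detoxifying epoxide hydrolase Ephx1 (r = -0.853, adjusted permutation p = 0.000145, rho = -0.893, adjusted permutation p = 0.000116), and 11%, 15.3% and 5.53% of all genes had a lower r than these 3. Without the 2 farthest libraries r was 0.890 for Blvrb, 0.867 for Prdx2, 0.825 for Txnrd2, 0.765 for Prdx3, 0.863 for Mafk, 0.860 for Mafg, -0.663 for Keap1, -0.715 for Nfe2l1 and -0.827 for Ephx1. Nfe2l2 itself did not pass (r = 0.361, adjusted permutation p = 0.19, rho = 0.253, adjusted permutation p = 0.365), nor did Hmox1, the inducible heme oxygenase of macrophages (r = -0.487, adjusted permutation p = 0.0767, rho = -0.331, adjusted permutation p = 0.248).

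**Figure D5:**
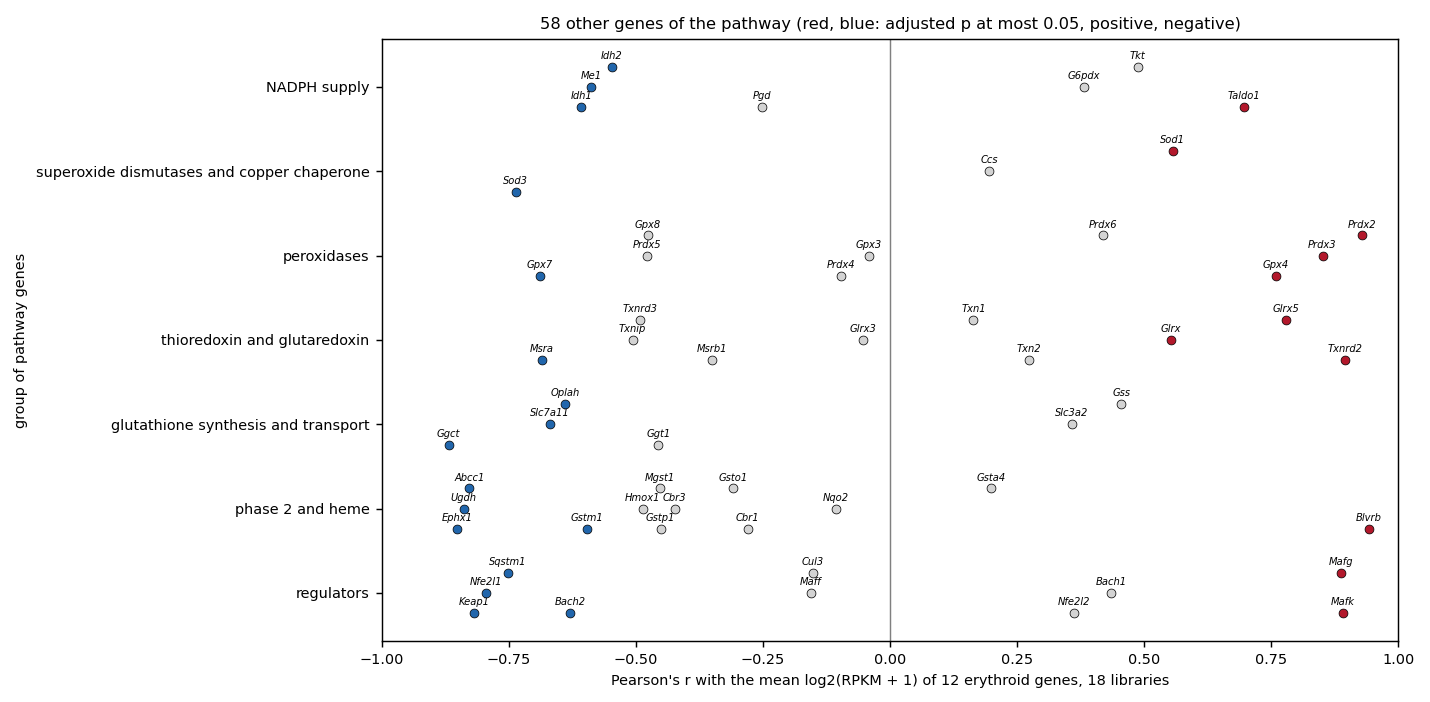
Pearson's r of the 58 other pathway genes with the mean of the 12 erythroid markers over 18 libraries (horizontal axis), grouped by role (vertical axis, small vertical offsets only separate the labels). Red points are the 11 genes past the adjusted threshold with a positive r and blue points the 17 with a negative r. The peroxidases Prdx2 and Prdx3 lie on the right, while the peroxidase Gpx7, Keap1 and Nfe2l1 lie on the left.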

How the data were processed

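Poly(A) RNA of 18 mouse spleens was sequenced, 3 libraries in each of 6 groups set by the labels. The deposited values are RPKM, which the authors computed from reads aligned with SOAPaligner per the methods of the study, while the submitters' processing notes name Bowtie 0.12.2 and mm10. Read totals are not given in the sources used here. RPKM steps of 28 genes, taken to be at single reads, put the relative depth of the libraries between 0.946 and 1.06. These genes were picked because their values above 0 agreed closely between libraries. A wider spread of depth could therefore not have shown, and each library rests on 4 to 12 of the genes. From 19326 lines, 6 lines of 3 repeated names were left out, and 22 names turned into dates were kept. Genes with an RPKM of 1 or more in at least 3 libraries (12905) were tested on log2(RPKM + 1) with limma 3.58.1 (R 4.3.3), with a trend and all 6 groups in 1 fit, and p-values were adjusted by Benjamini-Hochberg over all genes tested. Fold changes are on this scale, which understates those of low genes. Nothing in the labels says whether libraries of a group come from separate animals, so p-values measure the spread between these libraries. Relations across libraries were tested by 100000 permutations, two-sided, and within groups by all 46656 rearrangements (scipy 1.17.1). Promoter windows came from RefSeq (GRCm38.p6) and gene coordinates from GENCODE M21. The alternatives were quantile normalization, median centring, removal of globin genes, other filters, a pseudocount of 0.1, array weights (gene-by-gene method), only the groups compared, a replicate block, a stricter threshold, each library left out and, added after seeing the data, an erythroid covariate. The script was tested on simulated data. The 10 genes and all lists were chosen with earlier results of these data known. All 10 genes are named, with Nfe2l2, Keap1 and the 3 genes most like each in pattern, and other pathway genes were named after their values were seen.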

Additional observations from a re-analysis of the deposited data

How the results depend on the processing

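Without array weights, 0 of the 10 genes passed the adjusted threshold in the 8 tests under each alternative run, except Nqo1 in A10-FMT against Con-FMT without A10-FMT replicate 2. The relations to the erythroid markers passed for 6 genes in each alternative and with each single library left out, except 7 genes without the globin genes and 5 within groups. With 3 libraries a group and RPKM as the only unit, read counts were not analysed here, and single libraries decide many counts. Array weights ran from 0.112 (A10-FMT replicate 3) to 7.37 (A10-FMT replicate 1). The cause of the higher counts with weights was not tested. With array weights, of the 10 genes limma called 3 for STZ against Con, 3 for A10 against Con, 1 for A10-FMT against STZ, 2 for Con-FMT against STZ, 8 for A10-FMT against Con-FMT and 7 for any difference. Of all genes tested, it called 3716 for STZ against Con, 1327 for A10 against Con, 9 for STZ-A10 against STZ, 2145 for A10-FMT against STZ, 2360 for Con-FMT against STZ, 6068 for A10-FMT against Con-FMT, 4 for the interaction and 9970 for any difference. Of the wider list, it called 26 for STZ against Con, 6 for A10 against Con, 10 for A10-FMT against STZ, 13 for Con-FMT against STZ, 25 for A10-FMT against Con-FMT and 49 for any difference. The uncalled log2 fold changes that changed sign went in A10 against Con to 0.011 (Txnrd1), in STZ-A10 against STZ to -0.11 (Cat), in A10-FMT against STZ to -0.017 (Gclm), -0.038 (Gclc), -0.23 (Txnrd1) and -0.053 (Sod2), in Con-FMT against STZ to -0.11 (Cat), in A10-FMT against Con-FMT to -0.017 (Txnrd1), in the interaction to -0.044 (Gclm), -0.087 (Txnrd1) and -0.0026 (Gpx1).

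With the erythroid mean as a covariate, of all genes tested limma called 236 for STZ against Con. Of the wider list, it called 1 for STZ against Con and 1 for any difference. The uncalled log2 fold changes that changed sign went in A10 against Con to 0.035 (Nqo1), 0.030 (Gclm), 0.040 (Cat) and 0.11 (Gpx1), in STZ-A10 against STZ to 0.081 (Srxn1), -0.017 (Gsr) and 0.025 (Gpx1), in A10-FMT against STZ to -0.20 (Gclm), -0.087 (Gclc), -0.028 (Txnrd1), -0.0094 (Sod2) and -0.046 (Gpx1), in Con-FMT against STZ to 0.037 (Gpx1), in A10-FMT against Con-FMT to -0.013 (Gclm), 0.045 (Prdx1) and -0.083 (Gpx1), in the interaction to -0.18 (Gclm), -0.088 (Gclc) and -0.084 (Gpx1). Under quantile normalization, of all genes tested limma called 10 for STZ against Con and 2 for A10 against Con. The uncalled log2 fold changes that changed sign went in A10-FMT against STZ to -0.0015 (Prdx1). With each library centred on its median, of all genes tested limma called 5 for STZ against Con, 2 for A10 against Con and 98 for any difference. The uncalled log2 fold changes that changed sign went in A10 against Con to -0.011 (Sod2), in STZ-A10 against STZ to -0.0055 (Prdx1), in A10-FMT against Con-FMT to 0.15 (Prdx1). Without the globin genes, of all genes tested limma called 8 for STZ against Con, 2 for A10 against Con and 231 for any difference. Of the wider list, it called 2 for any difference. The uncalled log2 fold changes that changed sign went in A10 against Con to -0.021 (Sod2), in A10-FMT against Con-FMT to 0.019 (Prdx1). With an RPKM of 1 required in every library, of all genes tested limma called 9 for STZ against Con, 0 for A10 against Con, 0 for STZ-A10 against STZ, 0 for A10-FMT against STZ, 0 for Con-FMT against STZ and 29 for any difference. Without a filter on low values, of all genes tested limma called 9 for STZ against Con, 4 for A10 against Con, 6 for STZ-A10 against STZ, 9 for A10-FMT against STZ and 6 for Con-FMT against STZ. With a pseudocount of 0.1, of all genes tested limma called 47 for STZ against Con, 2 for A10 against Con and 1 for A10-FMT against Con-FMT. With only the groups compared in the fit, of all genes tested limma called 0 for STZ against Con, 5 for A10-FMT against STZ and 1 for A10-FMT against Con-FMT. With a replicate block, of all genes tested limma called 3 for STZ against Con and 21 for any difference. Libraries with the same replicate number in different groups deviated from their group means with r between -0.385 and 0.571 (median 0.0441, over 0.1 in 14 of 45 pairs), so the numbers were taken as names only, and the block called 0 of the 10 genes. At the threshold of the study (adjusted p of at most 0.001 and a log2 fold change of at least 1), of all genes tested limma called 0 for STZ against Con.

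Leaving out each library in turn gave these ranges of calls, of the 10 genes, 0 to 1 for A10-FMT against Con-FMT, of all genes, 1 to 21 for A10 against Con, 0 to 2625 for A10-FMT against Con-FMT, 1 to 87 for A10-FMT against STZ, 1 to 3 for Con-FMT against STZ, 0 to 234 for STZ against Con and 4 to 814 for any difference, of the wider list, 0 to 9 for A10-FMT against Con-FMT, 0 to 1 for STZ against Con and 0 to 7 for any difference. The highest counts came without A10-FMT replicate 2 for A10-FMT against Con-FMT and any difference, without A10-FMT replicate 3 for STZ against Con and Con-FMT against STZ, without Con replicate 3 for A10 against Con and without STZ replicate 3 for A10-FMT against STZ. For Con-FMT against STZ, the log2 fold change without single libraries ranged for Cat from -0.19 to 0.12 and Gpx1 from -0.42 to 0.17. For STZ against Con, the log2 fold change without single libraries ranged for Cat from -0.25 to 0.055 and Gclm from -0.056 to 0.56. For STZ-A10 against STZ, the log2 fold change without single libraries ranged for Cat from -0.17 to 0.14, Gpx1 from -0.52 to 0.18, Gsr from -0.33 to 0.39, Prdx1 from -0.051 to 0.13, Srxn1 from -0.19 to 0.094 and Txnrd1 from -0.10 to 0.024. For the interaction, the log2 fold change without single libraries ranged for Cat from -0.040 to 0.27, Gclc from -0.12 to 0.35, Gclm from -0.27 to 0.46, Gpx1 from -0.20 to 0.49, Nqo1 from -0.40 to 0.021 and Txnrd1 from -0.017 to 0.14. For A10-FMT against STZ, the log2 fold change without single libraries ranged for Gclc from -0.030 to 0.44, Gclm from -0.10 to 0.57, Gpx1 from -0.014 to 0.58, Gsr from -0.12 to 0.20, Sod2 from -0.13 to 0.14 and Txnrd1 from -0.23 to 0.13. For A10-FMT against Con-FMT, the log2 fold change without single libraries ranged for Prdx1 from -0.079 to 0.038 and Txnrd1 from -0.085 to 0.28. For A10 against Con, the log2 fold change without single libraries ranged for Sod2 from -0.038 to 0.082.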

Other observations

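The gene whose pattern over the 18 libraries was most like that of Gsr, among all genes tested, lies beside it on chromosome 8. Ppp2cb (chr8:33599625-33619441, plus strand, GRCm38), which encodes a catalytic subunit of protein phosphatase 2A, ends 33082 bases before Gsr (chr8:33652523-33698163, plus strand) and had r = 0.817 with it on log2(RPKM + 1), and 0.840 on deviations from the group means. Ppp2cb ranged from 33.4 to 47.6 RPKM, with its highest value in STZ-A10 replicate 1, where Gsr was exceeded only by Con replicate 1. All other libraries of Ppp2cb were at 41.9 or below, and r without STZ-A10 replicate 1 was not computed. Of the other genes within 250 kb of Gsr, Ubxn8, which lies closer (10556 bases), had r = 0.510 and rank 157 among the genes tested. Purg had r = 0.178, Gtf2e2 0.045 and Rbpms 0.012. The values are given as a description over 18 libraries that differ in their makeup, the pair was chosen after its values were seen, and no cause was tested.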
